A study of Mus musculus with 4 samples.

Results

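The 10 genes described here are regulators of self-renewal in blood stem cells: Mecom, Prdm16, Erg, Fli1, Etv6, Lyl1, Hlf, Mllt3, Msi2 and Fgd5. They were listed by name and matched by symbol in the deposited log2 RPKM tables, and then by Entrez identifier in the table of raw counts. They lie on mouse chromosomes 3 (Mecom), 4 (Prdm16 and Mllt3), 6 (Etv6 and Fgd5), 8 (Lyl1), 9 (Fli1), 11 (Hlf and Msi2) and 16 (Erg). All 10 were found among the 26286 genes of that table, and all 10 passed the filter on low counts that left 14912 genes for testing. RNA sequencing had been carried out on LSK cells, sorted from C57BL/6 mouse bone marrow as lineage-negative cells with Sca-1 and Kit on their surface. The 4 libraries fall into 2 groups, 2 libraries whose genotype is given as Hhex deletion and 2 wild-type libraries, and the title of the series places the study in the question of how Hhex, a homeobox transcription factor, acts on stem cell self-renewal. The labels do not give the allele, the Cre driver, a treatment, the age of the mice or whether the libraries of a group came from separate mice. The p-values therefore measure the spread between these libraries, which may in part be technical. In the group labelled Hhex-deleted it also includes a difference of sex, described below.

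A blood stem cell renews itself when a daughter cell keeps the stem cell programme instead of starting to mature. That programme is held by transcription factors that bind shared enhancers, among them the ETS factors Erg and Fli1 and the basic helix-loop-helix factor Lyl1, which belong to a group of 7 factors known as the heptad. Mecom and Prdm16 are related zinc finger proteins needed for stem cell maintenance in the mouse, Etv6 is an ETS repressor needed by adult stem cells in the marrow, and Hlf is a PAR bZIP factor. Mllt3 (AF9) reads acylated histones and joins Dot1l and the elongation machinery to chromatin, Msi2 binds RNA and acts on its translation, and Fgd5 encodes an exchange factor for the GTPase Cdc42 that is used in reporter mice to mark stem cells.

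Facts about the libraries bear on every value below. Hhex itself had 179 and 188 CPM (read counts scaled to a common library size) in the libraries labelled Hhex-deleted, against 127 and 115 CPM in the wild-type libraries. It rose by 0.60 ± 0.09 on the log2 scale (SE), with an adjusted p of 0.0271 in edgeR's quasi-likelihood test with Benjamini-Hochberg adjustment. Counts summed over the whole gene do not show whether part of it was deleted, so they did not check the genotype, and the direction of each comparison rests on the labels. Xist, the RNA of the inactive X chromosome, had 2662 CPM in the library labelled Hhex-deleted replicate 1, 2.59 CPM in the library labelled Hhex-deleted replicate 2, and 2.66 and 1.89 CPM in the wild-type libraries. Ddx3y, which males carry on the Y, had 0.34 and 138 CPM in the libraries labelled Hhex-deleted, against 134 and 124 CPM in the wild-type libraries. With high Xist and almost no Ddx3y, the library labelled Hhex-deleted replicate 1 had a female pattern, and the other 3 libraries a male one. The libraries labelled Hhex-deleted thus did not come from the same mouse, and the spread within that group includes a difference of sex. The library labelled Hhex-deleted replicate 1 stood apart from the other 3 in these sex-linked genes, and results for the regulators are given with and without it. Total counts per library lay between 27871827 and 29501591.

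Of the 10 regulators, 1 passed the test. Mllt3 rose, none fell, and the other 9 did not reach an adjusted p of 0.05. Over all tested genes, 1.48% were called higher and 1.12% lower. Without adjustment, Mllt3 and Erg were higher and Fgd5 lower at p under 0.05, where 7.59% of all tested genes were higher and 8.23% lower at that level. The groups did not overlap for those same 3 regulators, 2 higher and 1 lower, while 45.5% of all tested genes had groups that did not overlap. The median log2 fold change was -0.02 over the regulators and -0.01 over all tested genes. In sorted cells analysed in bulk, fewer cells of a type and less RNA per cell cannot be told apart.

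**Figure D1:**
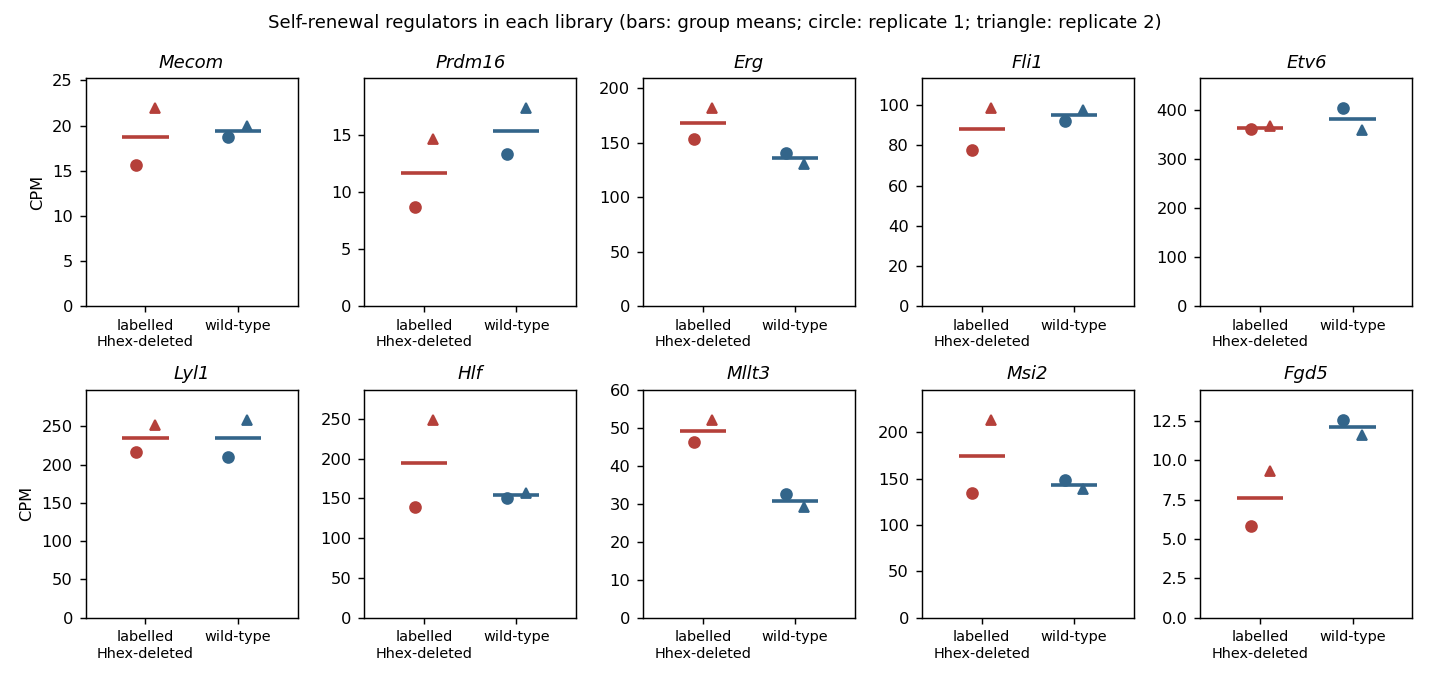
CPM of each regulator in each library (vertical axes, each from 0), with the libraries labelled Hhex-deleted on the left and the wild-type libraries on the right of each panel; bars are group means (n = 2), circles replicate 1 and triangles replicate 2. Mllt3 and Erg lie higher and Fgd5 lower in the libraries labelled Hhex-deleted with no overlap, and Hlf and Msi2 lie far apart within that group.

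Mllt3 had 46.3 and 52.2 CPM in the libraries labelled Hhex-deleted, against 32.6 and 29.1 CPM in the wild-type libraries. The reads behind these values numbered 1352 and 1574 in the group labelled Hhex-deleted, against 893 and 831 in the wild-type group. Both libraries labelled Hhex-deleted lay above both wild-type libraries. Mllt3 averaged 49.3 ± 4.17 CPM in the libraries labelled Hhex-deleted and 30.8 ± 2.47 CPM in the wild-type libraries (SD, n = 2 each), a 1.60-fold difference with a 95% interval of 1.33 to 1.91. On the log2 scale it rose by 0.68 ± 0.11 (SE), with an adjusted p of 0.0361 in edgeR's quasi-likelihood test. Without the library labelled Hhex-deleted replicate 1, the log2 fold change was 0.76. The call was lost when the library labelled Hhex-deleted replicate 2 was left out (adjusted p = 0.0761 in edgeR), when the first wild-type library was left out (0.0658) and when the second was (0.168). Its size stayed between 0.59 and 0.76 in these 4 comparisons. Each of them left 1 library in a group, whose own spread could not be measured. With all 4 libraries, Mllt3 also missed the threshold in limma on the deposited log2 RPKM values (adjusted p = 0.0885) and in limma-voom without robust variance shrinkage (0.0652), while limma-voom with it gave 0.0436 and DESeq2 1.3e-04.

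Mllt3 is also the regulator whose start sites are shown here, because it was the one that passed the test. RefSeq places 2 starts on the minus strand of chromosome 4, and the windows before them were read from a RefSeq promoter table of build GRCm38.p6, which is not the build of the counts (mm9). The first line holds chr4:88033544-88033657, the longest stretch free of annotated exons in the 250 bases before the outer start. It ends 136 bases before that start. The second holds the 250 bases before the inner start, chr4:87806324-87806573, in which CATCTG, the reverse complement of CAGATG, is in capitals and begins 208 bases before the start.
Mllt3 upstream of the outer start: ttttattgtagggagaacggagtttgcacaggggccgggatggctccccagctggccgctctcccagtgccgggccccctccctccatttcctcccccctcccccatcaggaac
Mllt3 inner start: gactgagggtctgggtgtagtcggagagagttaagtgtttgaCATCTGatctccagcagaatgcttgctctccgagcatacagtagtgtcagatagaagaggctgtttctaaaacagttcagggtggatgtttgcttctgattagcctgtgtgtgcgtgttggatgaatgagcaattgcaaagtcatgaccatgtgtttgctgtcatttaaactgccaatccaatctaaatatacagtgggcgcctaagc
The G+C content was 69.2% in the whole outer window of 250 bases and 45.2% in the inner one, against a median of 52.4% over the 32851 windows of the table. CAGATG, an E-box form bound by Tal1 and Lyl1 complexes, was searched on both strands and lay in 14.4% of all windows, so its presence is a description of the letters. Reads were counted over the whole gene, and the counts do not tell which start was used.

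The ETS factors Erg, Fli1 and Etv6 did not pass the test. Erg had 154 and 182 CPM in the libraries labelled Hhex-deleted, against 140 and 131 CPM in the wild-type libraries. Both libraries labelled Hhex-deleted lay above both wild-type libraries, and the lowest of them was close to the higher wild-type one. The difference on the log2 scale for Erg was 0.31 ± 0.10 (SE), with a 95% interval of 0.05 to 0.56, an unadjusted p of 0.0252 and an adjusted p of 0.221 in edgeR. Fli1 had 77.5 and 98.5 CPM in the libraries labelled Hhex-deleted, against 92.1 and 97.7 CPM in the wild-type libraries. The groups overlapped, and the log2 fold change of -0.11 had a 95% interval of -0.41 to 0.20. Etv6, the most deeply counted of the 10 with 10308 to 11089 reads in each library, had 362 and 367 CPM in the libraries labelled Hhex-deleted, against 405 and 361 CPM in the wild-type libraries. Its log2 fold change of -0.07 had a 95% interval of -0.28 to 0.14, and an adjusted p of 0.801 in edgeR. Within each library, the level of Erg per gene length was 2.76 and 2.57 times that of Fli1 in the libraries labelled Hhex-deleted, against 2.12 and 1.87 times in the wild-type libraries. The groups did not overlap. An exact two-sided permutation test gave p = 0.333, the smallest that 2 libraries against 2 allow. Groups that do not overlap always give this p, so the test could not decide whether the ratio differed.

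Mecom and Prdm16, the zinc finger pair, did not pass the test. Mecom had 15.6 and 21.9 CPM in the libraries labelled Hhex-deleted, against 18.8 and 20.0 CPM in the wild-type libraries. The wild-type values lay between those of the libraries labelled Hhex-deleted. For Mecom the log2 fold change was -0.05, with a 95% interval of -0.49 to 0.39. Prdm16 had 8.67 and 14.6 CPM in the libraries labelled Hhex-deleted, against 13.3 and 17.3 CPM in the wild-type libraries. The groups overlapped, and the log2 fold change of -0.40 ± 0.28 (SE) had a 95% interval of -1.10 to 0.30 and an adjusted p of 0.615 in edgeR. The ratio of Mecom to Prdm16 per gene length was 2.81 and 2.35 in the libraries labelled Hhex-deleted, against 2.21 and 1.80 in the wild-type libraries. These groups did not overlap either, so the same permutation test could again give only p = 0.333. Mecom counts cover its long and short transcripts together. Of the annotated exonic bases, 0.652% in Mecom, 1.17% in Prdm16, 2.26% in Etv6 and 0.222% in Lyl1 overlap a gene on the other strand. Whether counting used strand is not given in the sources used here.

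Lyl1, which shares its DNA-binding domain type and part of its function with Tal1, had 217 and 252 CPM in the libraries labelled Hhex-deleted, against 210 and 259 CPM in the wild-type libraries. The 2 libraries labelled Hhex-deleted lay between the 2 wild-type ones. Its log2 fold change was -0.00 with a 95% interval of -0.32 to 0.32, which in linear terms runs from 0.802 to 1.24 times the wild-type level.

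Hlf differed most between libraries of one group. It had 139 and 249 CPM in the libraries labelled Hhex-deleted, against 151 and 156 CPM in the wild-type libraries. The first of the libraries labelled Hhex-deleted was the lowest of the 4 and the second the highest. A log2 fold change of 0.34 ± 0.31 (SE) had a 95% interval of -0.54 to 1.21 and an adjusted p of 0.734 in edgeR. With the library labelled Hhex-deleted replicate 1 left out, the log2 fold change of Hlf was 0.70. It was -0.14 without the library labelled Hhex-deleted replicate 2. Either fit left 1 library in that group, whose own spread could not be measured. The sign of the Hlf difference thus depended on which of these libraries was used.

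The 250 bases before the RefSeq start of Hlf, chr11:90390918-90391167 of GRCm38.p6 on the minus strand, are shown because Hlf was the regulator with the widest spread. The ETS core CCGGAA is in capitals and begins 125 bases before the start.
Hlf start: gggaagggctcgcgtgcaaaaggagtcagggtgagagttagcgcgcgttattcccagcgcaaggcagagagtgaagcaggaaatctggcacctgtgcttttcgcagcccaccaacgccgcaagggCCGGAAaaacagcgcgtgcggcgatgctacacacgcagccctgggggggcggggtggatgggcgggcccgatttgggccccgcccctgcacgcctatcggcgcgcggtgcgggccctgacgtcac
This window had a G+C content of 67.2% and 26 CpG dinucleotides, against medians of 52.4% and 6 over all windows. CCGGAA, searched on both strands, lay in 12.0% of all windows and in 2 of the 15 windows of the regulators, those of Hlf and Lyl1. Windows were found for 9 of the 10 regulators, all but Fli1. A Gata site, AGATAA, was found in 9.99% of all windows and in 1 of the 15, a window of Erg. The E-box named above lay in windows of Mecom and Mllt3, 2 of the 15. The homeodomain core TAAT lay in 6 of the 15 and in 54.9% of all windows, and the homeodomain octamer CAATTAAA lay in none of the 15 and in 0.983% of all windows. TTACGTAA, the palindrome that PAR bZIP factors such as Hlf bind, lay in none of the 15 and in 0.113% of all windows.

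Msi2 followed the same order of libraries as Hlf at its extremes. It had 135 and 214 CPM in the libraries labelled Hhex-deleted, against 148 and 139 CPM in the wild-type libraries. The log2 difference of 0.28 ± 0.23 (SE) had an adjusted p of 0.694 in edgeR. The log2 fold change was 0.57 without the library labelled Hhex-deleted replicate 1 and -0.09 without the library labelled Hhex-deleted replicate 2. Here too, either fit left 1 library in that group.

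Fgd5 was the regulator with the lowest count. It had 5.82 and 9.32 CPM in the libraries labelled Hhex-deleted (170 and 281 reads), against 12.6 and 11.6 CPM in the wild-type libraries (345 and 332 reads). Both libraries labelled Hhex-deleted lay below both wild-type libraries. Its log2 fold change of -0.68 ± 0.25 (SE) had a 95% interval of -1.28 to -0.07, an unadjusted p of 0.0333 and an adjusted p of 0.255 in edgeR. It was -0.38 without the library labelled Hhex-deleted replicate 1 and -1.05 without the library labelled Hhex-deleted replicate 2.

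**Figure D2:**
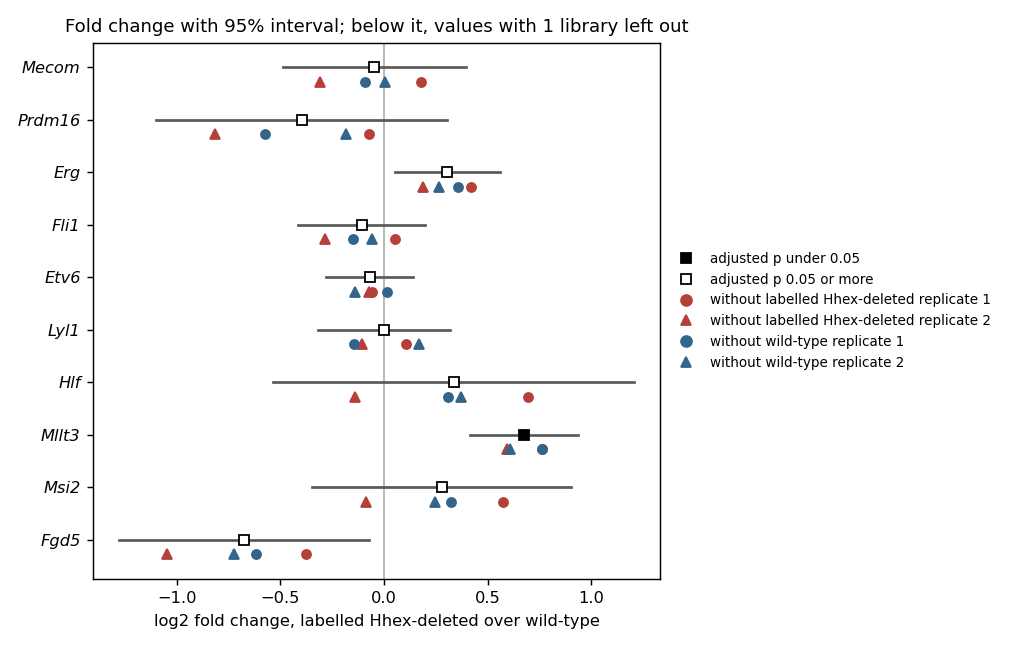
Log2 fold change of each regulator, labelled Hhex-deleted over wild-type (horizontal axis), as squares with 95% intervals; the filled square marks an adjusted p under 0.05 in edgeR, and the coloured points below it give the value with 1 library left out. The 4 points of Mllt3 lie between 0.59 and 0.76, while those of Hlf and Msi2 lie on both sides of 0.

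Leaving out the library that stood apart in Xist and Ddx3y changed the count of regulators past the test. Without the library labelled Hhex-deleted replicate 1, 3 regulators were higher, Mllt3, Hlf and Msi2. None was lower. Over all genes tested without that library, 2.4% were higher and 1.51% lower. The log2 fold changes of the regulators not yet given were 0.42 for Erg, 0.05 for Fli1, -0.06 for Etv6, 0.18 for Mecom, -0.07 for Prdm16 and 0.10 for Lyl1, so Fli1, Mecom and Lyl1 were on the other side of 0 without that library. In that comparison the remaining library of the group is assumed to vary like the wild-type libraries. The summed level of the regulators was 1460 CPM in that remaining library, the highest of the 4. It was 1159 CPM in the library left out, and 1223 and 1222 CPM in the wild-type libraries. When the other library of that group, or either wild-type library, was left out, 0 regulators were called in either direction. The shares of all tested genes called were then 1.52% higher and 0.86% lower without the library labelled Hhex-deleted replicate 2, 0.776% and 0.926% without the first wild-type library, and 0.549% and 0.261% without the second. With all 4 libraries, DESeq2 called 3.36% of genes higher and 3.46% lower, limma-voom without robust shrinkage 0.825% and 0.53%, and limma on log2 RPKM 0.9% and 0.513%.

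Within the group labelled Hhex-deleted, replicate 2 had a higher CPM than replicate 1 for all 10 regulators. This comparison was chosen after the values were seen. The ratio of replicate 2 to replicate 1 lay between 1.01 for Etv6 and 1.80 for Hlf. Hlf, Prdm16 at 1.68, Fgd5 at 1.60 and Msi2 at 1.59 were at least 1.5-fold higher. In the wild-type group the ratio lay between 0.892 and 1.30, with 5 of the 10 regulators higher in replicate 2 and none at 1.5-fold. Over all tested genes, replicate 2 was higher for 48.9% and at least 1.5-fold higher for 7.53% in the group labelled Hhex-deleted, against 50.2% and 4.80% in the wild-type group. All 10 were also higher in replicate 2 of the group labelled Hhex-deleted when scaled by total counts, by median-of-ratios size factors or on the deposited log2 RPKM scale, where 3 reached 1.5-fold. The sum over the 10 regulators was 1159 and 1460 CPM in the libraries labelled Hhex-deleted, against 1223 and 1222 CPM in the wild-type libraries.

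**Figure D3:**
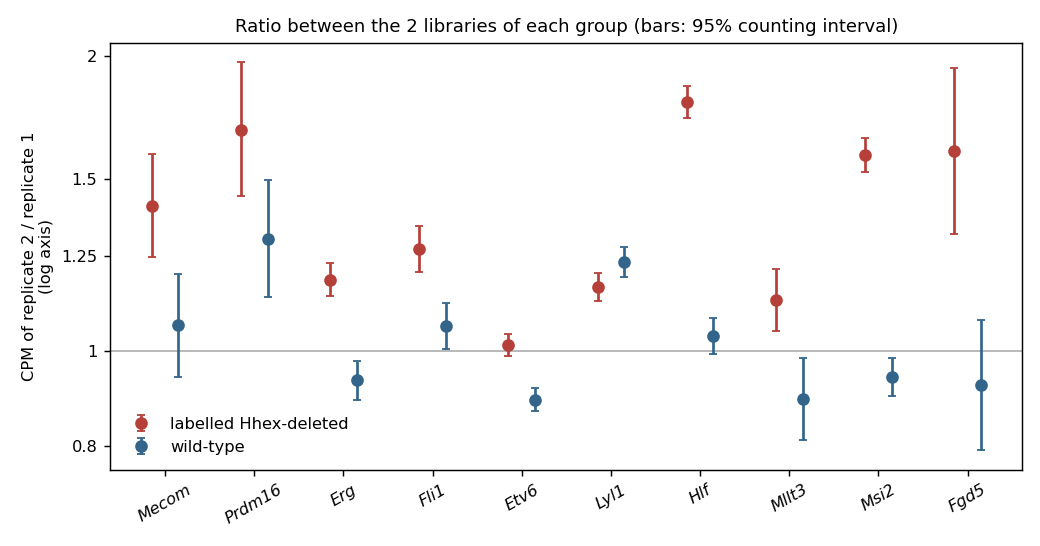
Ratio of the CPM of replicate 2 to that of replicate 1 for each regulator in each group (vertical log axis), with 95% intervals that cover counting error only. The ratios of the group labelled Hhex-deleted lie from 1.01 to 1.80, and those of the wild-type group from 0.892 to 1.30.

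Markers of the LSK gate and its subsets also differed between these libraries. Procr, a stem cell surface receptor, had 12.7 and 35.8 CPM in the libraries labelled Hhex-deleted, against 20.2 and 22.6 CPM in the wild-type libraries. Ly6a, which encodes Sca-1 of the sort gate, had 20.7 and 42.5 CPM in the libraries labelled Hhex-deleted, against 25.4 and 25.4 CPM in the wild-type libraries. Flt3, a receptor of multipotent and lymphoid progenitors, had 282 and 506 CPM in the libraries labelled Hhex-deleted, against 301 and 276 CPM in the wild-type libraries. These 3 markers were lower in replicate 1 than in replicate 2 of the group labelled Hhex-deleted, as the regulators were, and were named after their values were seen. Kit differed less, at 605 and 698 CPM in the libraries labelled Hhex-deleted, against 566 and 601 CPM in the wild-type libraries, and Slamf1 had 9.83 and 8.56 CPM in the libraries labelled Hhex-deleted, against 7.00 and 6.44 CPM in the wild-type libraries. Of the 12 gate and subset markers, which include the regulator Fgd5, 1 rose and none fell. It was Cd48, found on progenitors and low on stem cells, with 212 and 232 CPM in the libraries labelled Hhex-deleted, against 148 and 139 CPM in the wild-type libraries, and a log2 fold change of 0.63 ± 0.09 (adjusted p = 0.0239, edgeR). Without the library labelled Hhex-deleted replicate 1, 4 of the 12 rose, where 2.4% of all tested genes were higher, and without either wild-type library none did. The summed level of the 12 markers was 2547 and 2912 CPM in the libraries labelled Hhex-deleted, against 2424 and 2342 CPM in the wild-type libraries. The part of subset composition in the regulators' values was not tested.

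**Figure D4:**
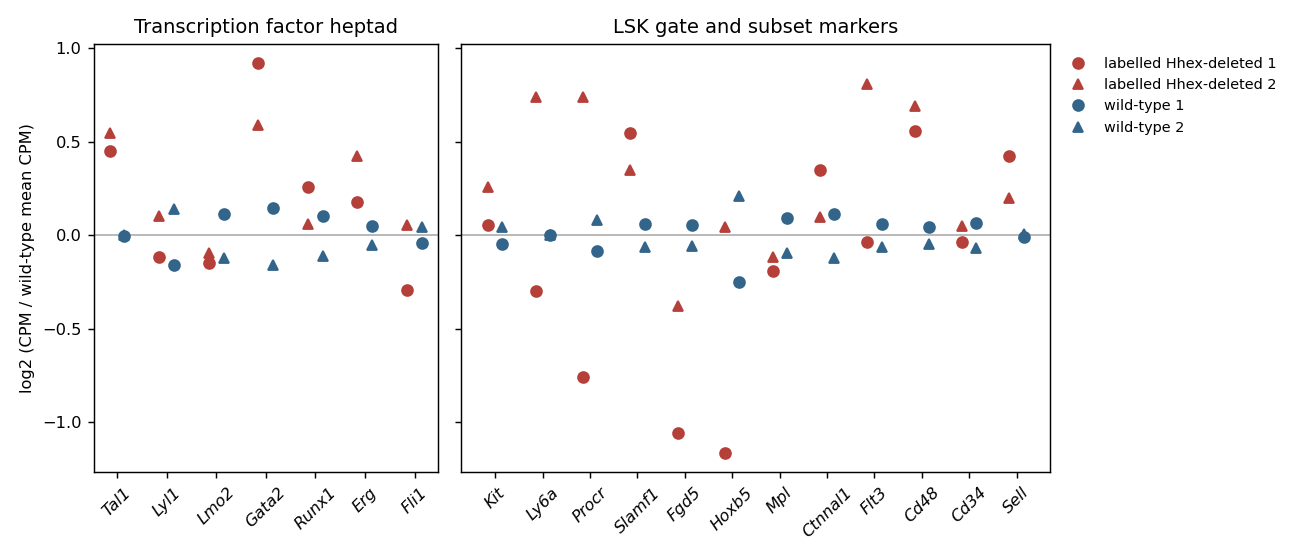
CPM of each heptad factor (left) and each gate and subset marker (right) relative to the wild-type mean on a log2 axis, 1 point a library. Tal1, Gata2 and Cd48 lie above 0 in both libraries labelled Hhex-deleted, and Procr, Ly6a and Flt3 lie lower in replicate 1 than in replicate 2 of that group.

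Per gene length, the regulators covered a wide range of levels. On the deposited log2 RPKM scale, with the mean taken over all 4 libraries, Lyl1 was the highest at 7.10. Erg at 6.17 and Etv6 at 6.16 came next, then Hlf at 4.98, Fli1 at 4.96 and Msi2 at 4.77. Mllt3 at 2.73, Mecom at 1.87, Fgd5 at 0.83 and Prdm16 at 0.69 formed the low end. Over the 4 libraries, the ranges of Erg and Etv6 overlapped, as did those of Hlf and Fli1, of Fli1 and Msi2, and of Fgd5 and Prdm16, so their order was not separated. The ranges of all other neighbours were apart. Among the 12662 genes of the deposited log2 RPKM tables, Lyl1 stood at the 96.3 percentile, Mllt3 at 31.5 and Prdm16 at 11.8. The 10 ranks were the same when RPKM was computed from the counts.

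**Figure D5:**
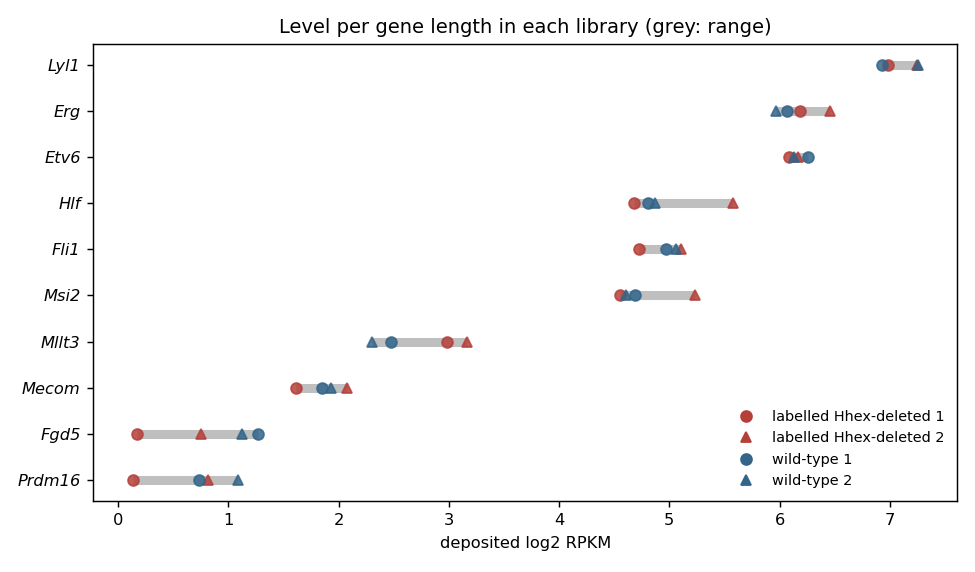
Deposited log2 RPKM of each regulator (horizontal axis) in each library, ordered by the mean over the 4 libraries, with grey bars for the range. Lyl1 lies highest and Fgd5 and Prdm16 lowest, and the ranges of Erg and Etv6 overlap.

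The other factors of the heptad, with which Erg, Fli1 and Lyl1 share enhancers, were Tal1, Lmo2, Gata2 and Runx1. Of the 7 heptad factors, 1 rose and none fell, while DESeq2 called 2 higher and both limma-voom without robust shrinkage and limma on log2 RPKM called 0. Tal1, a basic helix-loop-helix factor, had 218 and 233 CPM in the libraries labelled Hhex-deleted, against 159 and 159 CPM in the wild-type libraries. The groups did not overlap, and the log2 fold change of 0.50 ± 0.08 (SE) had an adjusted p of 0.0339 in edgeR. Tal1 no longer passed edgeR when the library labelled Hhex-deleted replicate 2 was left out (adjusted p = 0.0619), nor when the first (0.135) or the second (0.184) wild-type library was. With all 4 libraries it also missed the threshold in limma-voom without robust shrinkage (adjusted p = 0.0543) and in limma on log2 RPKM (0.0537). The adjusted p of Tal1 was 0.0311 in edgeR without the library labelled Hhex-deleted replicate 1. The median log2 fold change of the heptad was 0.16 with Erg, Fli1 and Lyl1 in it and 0.33 over the other 4 factors, beside -0.01 for all tested genes.

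Partners through which the regulators act on chromatin and RNA, among them Dot1l and Aff1 for Mllt3 and Ctbp1 for Mecom, were listed as 27 genes. None of the 27 passed edgeR's test in either direction, while 3 were higher and 3 lower at an unadjusted p under 0.05, and DESeq2 called 1 higher and 1 lower. Gata2, a zinc finger factor of stem cells and mast cells, had 423 and 336 CPM in the libraries labelled Hhex-deleted, against 247 and 200 CPM in the wild-type libraries, a log2 fold change of 0.76 ± 0.15 (adjusted p = 0.0727, edgeR).

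Relatives of the regulators by family (Prdm, ETS, PAR bZIP, Fgd, Musashi and helix-loop-helix genes) were listed as 41 genes, of which 31 were tested and 7 had no read in any library. Tal1 was the only one of the 31 that passed edgeR's test. DESeq2 called 1 of this list higher and 2 lower, and limma-voom without robust shrinkage and limma on log2 RPKM called 0. The median log2 fold change of the 31 was 0.04. Of 36 other genes of stem cell maintenance, 34 were tested, 1 rose and none fell, and the median was 0.18. For this list DESeq2 called 7 higher and 1 lower, and limma-voom without robust shrinkage and limma on log2 RPKM called 0 in either direction. The gene that rose was Ikzf2, a zinc finger factor of the Ikaros family, with 89.1 and 81.1 CPM in the libraries labelled Hhex-deleted, against 58.0 and 52.6 CPM in the wild-type libraries. Its log2 fold change was 0.62 ± 0.09 (adjusted p = 0.0292, edgeR), and it no longer passed when the first (adjusted p = 0.0716, edgeR) or the second (0.161) wild-type library was left out. Ikzf2 also missed the threshold in limma-voom without robust shrinkage (adjusted p = 0.0569) and in limma on log2 RPKM (0.0755).

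Markers of other cell types also differed between the groups. All 8 B cell precursor markers rose, with a summed level of 109 and 151 CPM in the libraries labelled Hhex-deleted, against 12.3 and 15.4 CPM in the wild-type libraries. Rag1, which cuts antigen receptor genes, had 25.7 and 39.1 CPM in the libraries labelled Hhex-deleted, against 2.63 and 2.80 CPM in the wild-type libraries. Of the 7 mast cell and basophil markers, 6 were tested and 5 rose, with a summed level of 896 and 846 CPM in the libraries labelled Hhex-deleted, against 202 and 187 CPM in the wild-type libraries. Cpa3, a mast cell protease, had 578 and 533 CPM in the libraries labelled Hhex-deleted, against 125 and 106 CPM in the wild-type libraries. Of the 9 granulocyte and monocyte progenitor markers, 4 fell and none rose, with a summed level of 12743 and 9251 CPM in the libraries labelled Hhex-deleted, against 18343 and 22399 CPM in the wild-type libraries. Most of that sum was Mpo, with 8748 and 5846 CPM in the libraries labelled Hhex-deleted, against 11153 and 13052 CPM in the wild-type libraries. Mpo did not pass the test (adjusted p = 0.222, edgeR). Elane, a primary granule protease, had 1075 and 1048 CPM in the libraries labelled Hhex-deleted, against 2279 and 3121 CPM in the wild-type libraries. Of these 9 markers, 1 fell without the library labelled Hhex-deleted replicate 2, 1 fell in limma on log2 RPKM, and 8 fell in DESeq2. The part of these cell types in the levels of Mllt3 and the other regulators was not tested.

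Endothelial, megakaryocyte, erythroid and stromal markers were read because Erg, Fli1 and Fgd5 are also genes of endothelium and Mecom, Fli1 and Etv6 of megakaryocytes. Of the 12 endothelial markers, 11 were tested. Egfl7, also expressed by stem cells, rose by 0.78 on the log2 scale (adjusted p = 0.0366, edgeR), and Tie1, a receptor also found on stem cells, fell by 0.68 on the log2 scale (adjusted p = 0.0227, edgeR). Neither passed when either wild-type library was left out, and Egfl7 also missed the threshold in limma-voom without robust shrinkage (adjusted p = 0.0675) and in limma on log2 RPKM (0.0688). The defining endothelial gene Cdh5 had 0.62 and 0.80 CPM in the libraries labelled Hhex-deleted, against 0.11 and 0.11 CPM in the wild-type libraries, which is at the floor of 3 counts in the wild-type libraries. The summed level of the 12 was 470 and 414 CPM in the libraries labelled Hhex-deleted, against 434 and 396 CPM in the wild-type libraries. None of the 9 megakaryocyte, 7 erythroid and 3 tested stromal markers passed edgeR's test, with 2 megakaryocyte markers higher at an unadjusted p under 0.05 and none of the others, and with 1 megakaryocyte and no erythroid or stromal marker called by DESeq2. The smallest p-values of these lists belonged to the platelet integrin Itga2b and the platelet glycoprotein Gp5, with log2 fold changes of 0.48 and 0.42, to the erythroid factor Klf1 at 0.75, and to the stromal genes Col1a2 and Cxcl12 at 1.09 and 0.93.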

How the data were processed

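RNA of sorted LSK cells was made into libraries with a TruSeq RNA kit, per the labels' protocols. The authors deposited raw read counts per Entrez gene for the 4 libraries and, for each library, log2 RPKM values (read counts relative to gene length and library size). Subread, featureCounts, limma and build mm9 are named in the submitters' processing notes, without roles or versions. Nothing read here names the strand setting or filters. With gene length added back, the 4 deposited log2 RPKM values of equal rank spanned a median of 0.00081, so they had been brought to nearly one distribution, a step that no label records. The main tests ran on counts, which carry depth; the log2 RPKM values gave the order of levels and 1 alternative test.

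Counts were tested in R 4.3.3 with edgeR 4.0.16. Genes with low counts were removed (filterByExpr, minimum count 10, minimum total 15), libraries were scaled with TMM factors, and a robust quasi-likelihood fit on group was tested over all 14912 remaining genes with Benjamini-Hochberg adjustment at 0.05. CPM are counts over the TMM-scaled totals, and SE is the absolute log2 fold change over the square root of F. The edgeR prior count was 0.125, and the biological coefficient of variation 16.3%. Intervals of ratios between libraries are exact binomial and cover counting error only, as does the floor of 3 counts per library. On data simulated for this comparison over 14912 genes, the test recovered 71% of 2-fold and 88% of 4-fold changes. The simulation gave each gene the spread typical of its count level, without gene-specific spread, and held no changes smaller than 2-fold. These shares therefore do not give the recovery for the regulators.

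Of the Entrez identifiers, 2031 have no symbol in the tables used and stayed in totals and tests. Alternatives were size factors and a Wald test of DESeq2 1.42.0, no filter, limma 3.58.1 on voom weights and on log2 RPKM, each library left out, and the replicate number as a block. Groups and replicate numbers came from sample titles. The smallest chi-square per degree of freedom between any 2 libraries was 29.7, so no pair differed by sampling noise alone. Named genes were all 10 regulators and, in each companion list, the genes past the test (at most 4 with the smallest p) or otherwise the 2 with the smallest p; not all of them are printed. Procr, Ly6a, Flt3, Kit, Slamf1, Cdh5, Mpo, Nr4a1 and Cxcr4 fall outside this rule and were chosen after their values were seen. Members and lists were chosen with earlier results of these data known, and the motifs and printed start sites were chosen after values were seen.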

Additional observations from a re-analysis of the deposited data

How the results depend on the processing

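Of 10 regulators, 4 kept their sign in all 11 alternatives (Mllt3, Erg, Prdm16, Fgd5), and none was called lower in any. The count called higher, 1 as reported, was 0 with limma-voom, 0 with limma on log2 RPKM and 0 with the replicate block, and 0 to 3 with 1 library left out. limma-voom was run with robust variance shrinkage first and then without it, after results were seen: Mllt3 had an adjusted p of 0.0436 with it and 0.0652 without it, so the call depends on that choice, and both are kept. Mllt3 had an adjusted p of 0.0885 on log2 RPKM and 0.0726 with the replicate block, against 1.3e-04 with the DESeq2 test, 0.0179 with no filter and 0.0385 with size factors. Its log2 fold change lay between 0.59 and 0.76 in all 11. The replicate numbers correlated at 0.326 in their deviations, but labels name no shared batch, and 2 pairs are too few to show whether the numbers pair the libraries. Some genes differed by replicate number in both groups: Nr4a1 had 213 CPM in replicate 1 and 2.82 CPM in replicate 2 labelled Hhex-deleted, against 712 and 4.48 CPM in the wild-type replicates, and Cxcr4 had 92.8 and 175 CPM in the libraries labelled Hhex-deleted, against 101 and 185 CPM in the wild-type libraries. Over all genes, 221 higher and 167 lower became 185 and 130 under the block, 493 and 508 with DESeq2, 123 and 79 with limma-voom, 187 and 149 with its robust form, 114 and 65 on log2 RPKM and 284 and 272 with no filter. With 1 library left out, 84 to 366 genes were higher and 40 to 231 lower. Lyl1, at -0.00, turned to 0.0065 with size factors, 0.0046 with DESeq2, 0.0030 with both limma-voom forms, 0.020 on log2 RPKM and 0.0029 with the block. With 1 library left out, log2 fold changes ranged from -0.31 to 0.18 for Mecom, -0.29 to 0.054 for Fli1, -0.14 to 0.015 for Etv6, -0.14 to 0.17 for Lyl1, -0.14 to 0.70 for Hlf and -0.086 to 0.57 for Msi2. The causes were not tested. With 2 libraries a group, the intervals for Hlf, Msi2, Prdm16, Mecom, Fli1, Etv6 and Lyl1 include changes of either sign.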
